A study of Homo sapiens with 12 samples.

Results

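The 7SK complex and P-TEFb, the pair of assemblies that hold and release paused RNA polymerase II, were followed through loss of MBD2 and through erythroid differentiation. The genes were chosen by name, as the RNA and protein subunits of both assemblies, with earlier results of these data known. The rule itself uses no measured value. They are RN7SK, MEPCE, LARP7, HEXIM1, HEXIM2, CDK9, CCNT1 and CCNT2, which make 8 of the 60483 genes in the count table. All 8 passed the filter on low counts and were among the 17175 genes tested.

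RNA was sequenced from HUDEP-2 cells, a line of human erythroid progenitors from cord blood that was immortalized with doxycycline-driven viral oncogenes. The 4 groups were MBD2 knockout cells (genotype MBD2-/-, called KO) after differentiation, control cells with a scrambled guide RNA (genotype WT, called SCR) after differentiation, KO cells before differentiation and SCR cells before differentiation, with 3 libraries each. MBD2 reads methylated CG dinucleotides and recruits the NuRD chromatin remodelling complex, and the question was how its loss alters expression in an erythroid model. After differentiation the cells were labelled late basophilic erythroblasts and had been moved to a medium with human serum, insulin, heparin and transferrin, for 3 days by one protocol and 5 days by another; before it they were labelled early basophilic erythroblasts and were grown with stem cell factor and dexamethasone. All groups received erythropoietin and doxycycline. The stage and the change of medium cannot be told apart. The labels say neither whether the KO cells were 1 clone nor whether replicates came from separate cultures. A p-value here speaks of the spread among the sequenced libraries alone, and that spread may be technical.

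Polymerase II often stops shortly after it starts a gene. P-TEFb, the kinase CDK9 with cyclin T1 or T2, releases it by phosphorylating the polymerase tail and the pausing factors DSIF and NELF. Much of the P-TEFb in a cell is held inactive on 7SK, a short nuclear RNA made by RNA polymerase III. MEPCE caps the 5′ end of 7SK, LARP7 binds its 3′ end, and HEXIM1 or HEXIM2 binds its 5′ hairpin and blocks CDK9. HEXIM1 takes its name from induction by HMBA, a compound long used to drive erythroleukemia cells into differentiation, and release of paused polymerase is a known step of erythroid gene control. RNA levels do not show how much P-TEFb was free or bound.

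RN7SK (ENSG00000202198.1) has 1 exon of 331 bases at chr6:52995620-52995950 on the plus strand of hg38. Its ends are shown because they are the sites of the partners measured here. Letters are DNA, from the GENCODE release 29 transcript with this identifier. Capitals mark GATC, which occurs 3 times in the 5′ hairpin region (bases 13 to 16, 42 to 45 and 64 to 67 from the 5′ end) that HEXIM1 binds, and the final run of T, the end that LARP7 binds.
RN7SK, bases 1 to 120: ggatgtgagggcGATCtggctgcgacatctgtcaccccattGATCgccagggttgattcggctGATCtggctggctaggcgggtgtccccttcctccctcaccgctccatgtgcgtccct
RN7SK, bases 272 to 331: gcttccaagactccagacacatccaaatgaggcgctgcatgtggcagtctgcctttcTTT

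Counting of this RNA is uncertain because the genome holds many copies of it. The table lists 293 RN7SK pseudogenes (RN7SKP), of which 175 had at least 1 count, and together they held 19.5 to 34.8 counts per 100 counts of RN7SK. A pair of them, RN7SKP203 (chr2:76445079-76445410, minus strand) and RN7SKP80 (chr22:42565048-42565330, minus strand), held 49.3% and 48.1% of those pseudogene counts, and the next, RN7SKP230, held 1.08%. The first 120 bases of both are shown to let the copies be compared with RN7SK above, with capitals where the aligned base differs from RN7SK.
RN7SKP203, bases 1 to 120: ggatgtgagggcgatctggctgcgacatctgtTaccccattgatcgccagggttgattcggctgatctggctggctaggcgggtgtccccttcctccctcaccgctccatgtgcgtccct
RN7SKP80, bases 1 to 120: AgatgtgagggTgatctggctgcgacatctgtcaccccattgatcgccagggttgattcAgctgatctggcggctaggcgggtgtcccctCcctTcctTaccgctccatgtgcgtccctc
Over the first 240 bases of RN7SK, RN7SKP203 was identical in 236 aligned positions and differed in 4. RN7SKP80 was identical in 230, differed in 9 and had a gap in 1. RN7SKP203 averaged 7204 ± 173 CPM in KO cells and 8354 ± 1363 CPM in SCR cells after differentiation, and 5291 ± 857 CPM in KO cells and 4964 ± 624 CPM in SCR cells before it (SD, n = 3 each). CPM is the count of a gene scaled to a common library size. Pairs of reads from such a stretch can match several copies, and how the aligner placed them is not given in the sources used here. RN7SK values are therefore given for the single gene and, for the change with differentiation only, also for the sum of RN7SK and all RN7SKP genes. The log2 fold change of RN7SKP80 in KO against SCR cells was -0.43 ± 0.20 after differentiation (SE, edgeR adjusted p = 0.106) and -0.24 ± 0.20 before it (adjusted p = 0.474). That of RN7SKP203 was -0.21 ± 0.13 after (adjusted p = 0.214) and 0.09 ± 0.13 before (adjusted p = 0.692).

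Total counts per library ran from 7667997 to 14047498. MBD2 averaged 15.8 ± 1.10 CPM in KO cells against 59.6 ± 1.66 CPM in SCR cells after differentiation, and 22.4 ± 2.36 CPM in KO cells against 77.2 ± 1.74 CPM in SCR cells before it (SD, n = 3 each). All 12 erythroid marker genes were detected in every group. Their summed level ran from 19243 to 21944 CPM in KO cells and 9816 to 10814 CPM in SCR cells after differentiation, and from 7973 to 10280 CPM in KO cells and 7498 to 8795 CPM in SCR cells before it. Ribosomal RNA genes held 1.68% to 2.74% of counts in KO cells after differentiation and 0.394% to 1.29% in the other groups. Markers of other lineages were low: the 7 mast cell and basophil markers summed to 9.25 to 12.4 CPM in KO cells and 44.8 to 50.7 CPM in SCR cells after differentiation, and to 36.4 to 43.6 CPM in KO cells and 120 to 141 CPM in SCR cells before it. The 7 megakaryocyte, 8 neutrophil and monocyte, 6 lymphoid, and 6 stromal and endothelial markers reached at most 56.8, 22.8, 0.737 and 1.71 CPM in any library. PPBP was at 0 counts in every group and CD3E likewise. With ribosomal RNA genes left out, a choice made after the data were seen, as many of the 8 genes passed in each comparison as with them. The part of the marker shifts in the results below was not tested.

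After differentiation, 4 of the 8 genes differed between KO and SCR cells at an adjusted p under 0.05, against 33.1% of all genes tested. In each direction the share of all genes was 16.8% higher and 16.3% lower, and of the 8 genes 3 were higher and 1 lower. HEXIM1, the inhibitor of P-TEFb, and CDK9, its kinase, were higher in KO cells by 1.56-fold and 1.53-fold. CCNT1 was higher by 1.14-fold and LARP7 was lower, at 0.865 of the SCR level, and both calls were lost when single libraries were left out. Before differentiation, 2 of 8 differed, HEXIM1 and CDK9, both higher in KO cells at 1.26-fold and 1.30-fold, against 17.2% of all genes (9.07% higher and 8.15% lower). Each of these calls before differentiation was lost without any 1 of 3 libraries and when only the 2 groups compared were fitted, and 0 to 3 of the 8 genes were called with a library left out. RN7SK did not pass the test between KO and SCR cells at either stage. The median log2 fold change of the 8 genes was 0.23 after and -0.07 before differentiation, against -0.01 and -0.00 over all genes tested. In bulk libraries, fewer cells of a type and less RNA per cell cannot be told apart.

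The stages were then compared within each genotype. In KO cells 6 of 8 genes differed after against before, where 55.7% of all genes did (28.0% higher and 27.7% lower), with RN7SK, HEXIM1, HEXIM2, CCNT1 and CCNT2 higher and LARP7 lower. In SCR cells 5 of 8 differed, where 43.8% of all genes did (21.5% higher and 22.3% lower), with RN7SK, HEXIM1, HEXIM2 and CCNT2 higher and LARP7 lower. The median log2 fold change of the 8 genes was 0.38 in KO cells and 0.21 in SCR cells, against 0.03 and 0.01 over all genes tested. CDK9 and MEPCE passed the test in neither. With a library left out, 6 to 7 of the 8 genes were called in KO cells and 2 to 5 in SCR cells. The knockout libraries after differentiation enter both the knockout and the stage comparisons, so those results are not independent.

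**Figure D1:**
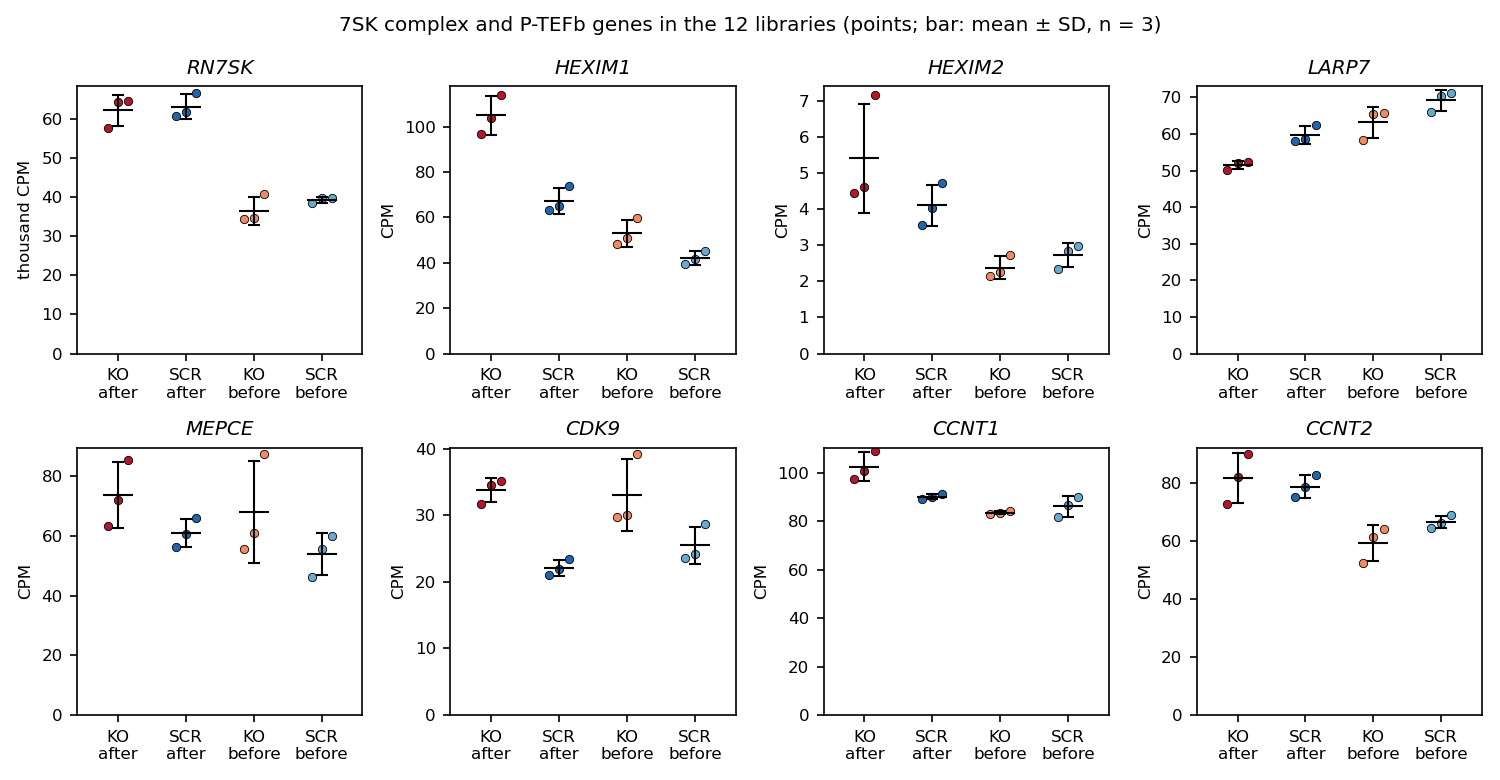
CPM of each of the 8 genes in every library (y axis, starting at 0, on its own scale for RN7SK), for KO and SCR cells after and before differentiation; points are libraries and bars are mean ± SD of 3. HEXIM1 ran from 97.0 to 114 CPM in KO cells after differentiation, above every other library, while the RN7SK points of KO and SCR cells overlap at both stages.

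RN7SK, the RNA scaffold, was the gene with the most counts in all 12 libraries, with 3.57% to 6.71% of them. After differentiation it stood at 64438, 57602 and 64728 CPM in KO libraries, against 61760, 60865 and 66776 CPM in SCR libraries. Before differentiation it stood at 40733, 34632 and 34400 CPM in KO libraries, against 39687, 38524 and 39702 CPM in SCR libraries. The genotypes overlapped at both stages, and every library after differentiation lay above every library before it. Against SCR cells, the log2 fold change in KO cells was -0.02 ± 0.08 (SE, 95% interval -0.20 to 0.16, edgeR adjusted p = 0.882) after differentiation and -0.10 ± 0.08 (-0.28 to 0.07, adjusted p = 0.460) before it. These intervals leave room for changes of up to 0.20 and 0.28 downward on that scale. With differentiation RN7SK rose 1.70-fold in KO cells (log2 0.77 ± 0.08, adjusted p = 6.9e-07) and 1.61-fold in SCR cells (0.68 ± 0.08, adjusted p = 4.7e-06). Summed with all RN7SKP genes, a choice made after the data were seen, the rise was 0.73 in KO cells and 0.70 in SCR cells on the log2 scale.

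RN7SK was also set beside other short RNAs of both polymerases. Per count of the listed polymerase III short RNAs, RN7SK had 4.43 ± 0.84 counts in KO cells and 4.99 ± 0.55 in SCR cells after differentiation, and 3.87 ± 0.49 in KO cells and 3.92 ± 0.71 in SCR cells before it (SD, n = 3 each). Per count of the polymerase II short nuclear RNAs it had 2.72 ± 0.64 in KO cells and 3.37 ± 0.91 in SCR cells after, and 2.38 ± 0.21 in KO cells and 2.46 ± 0.85 in SCR cells before. These ratios overlapped between KO and SCR cells at each stage, and between the stages within each genotype. Set against the library of the same replicate number, both ratios were lower in every KO than SCR library after differentiation. Both were also higher in every SCR library after than before it, and the other comparisons went both ways. The labels do not say that the numbers mark pairs, and a difference was not tested. Most counts of the polymerase III list were those of RN7SL2 of the signal recognition particle, 1416228 over the 12 libraries, with RNY1 next at 35081. The first ratio thus sets RN7SK mainly against 1 gene. Over all genes tested, 28.0% rose and 27.7% fell with differentiation in KO cells, and 21.5% rose and 22.3% fell in SCR cells. The median log2 fold changes were 0.10 in KO cells and 0.04 in SCR cells for the polymerase III list. They were 0.75 and 0.27 for the polymerase II list, against 0.03 and 0.01 over all genes tested. Of 11 polymerase III short RNAs tested out of 20 listed, 5 rose with differentiation in KO cells, among them the U6 gene RNU6-2 at 2.99-fold, and in SCR cells 1 rose and 2 fell. The rise in SCR cells was that of RNU6-2 (edgeR adjusted p = 0.0458), a call lost in 13 of 21 alternatives, 10 of which leave out a library. RNU6-2 held only 115 counts over the 12 libraries. The falls were those of RN7SL3 of the signal recognition particle, to 0.765 of its earlier level (lost without the first SCR library after differentiation, adjusted p = 0.0508), and of RNU6ATAC of the minor spliceosome, to 0.515 (lost without the first or the second SCR library before or the first or the third after differentiation, adjusted p up to 0.0725). Of 16 polymerase II short nuclear RNAs tested out of 23 listed, 9 rose in KO cells and 1 in SCR cells, the U1 gene RNU1-2, at 4.15-fold in KO cells and 1.66-fold in SCR cells. Their copies are near identical, so single members of these families are uncertain. RMRP and RPPH1, further polymerase III RNAs, were listed at 0 in every library.

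MEPCE (chr7:100428790-100434126), which puts the methyl cap on the 5′ end of 7SK, varied widely among the libraries of a group. It stood at 63.5, 72.1 and 85.6 CPM in KO libraries and 56.4, 66.0 and 60.7 CPM in SCR libraries after differentiation. Before differentiation it stood at 55.7, 87.7 and 61.1 CPM in KO libraries and 46.2, 55.7 and 60.1 CPM in SCR libraries. The genotypes overlapped at both stages, and the second KO library before differentiation was the highest of all 12. Its log2 fold change in KO cells was 0.27 ± 0.15 after differentiation (SE, edgeR adjusted p = 0.179) and 0.33 ± 0.14 before it (adjusted p = 0.137), both short of the threshold. The value before differentiation passed without the first KO library of that stage (0.45, adjusted p = 0.0420) and without the filter on low counts (0.33, adjusted p = 0.00489), and the value after it passed when only the 2 groups compared were fitted (0.26, adjusted p = 0.0449). With differentiation the changes of MEPCE were 0.11 ± 0.15 in KO cells and 0.18 ± 0.15 in SCR cells, and the test was not passed in either (adjusted p = 0.529 and 0.352). ZCWPW1, on the other strand, shares 203 of the exon bases of MEPCE. It held 647 counts in all KO and 708 in all SCR libraries after differentiation, and 305 and 285 before it. The effect of this overlap was not tested.

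LARP7 (chr4:112636964-112657592), which binds the 3′ end of 7SK and protects it, was the only one of the 8 genes called lower in any of the 4 comparisons. It stood at 52.4, 52.1 and 50.2 CPM in KO libraries and 58.7, 58.1 and 62.4 CPM in SCR libraries after differentiation, where the KO libraries were all lower. Before differentiation it stood at 65.7, 58.4 and 65.6 CPM in KO libraries and 71.3, 70.4 and 66.0 CPM in SCR libraries, again without overlap but by a small margin. LARP7 was lower in KO cells after differentiation, with a log2 fold change of -0.21 ± 0.07 (SE, edgeR adjusted p = 0.0285). That call was lost without any 1 of 5 libraries: any KO library, the first SCR library or the third SCR library after differentiation (adjusted p from 0.0591 to 0.104). Before differentiation the change of LARP7 was -0.13 ± 0.07 (adjusted p = 0.212). LARP7 fell with differentiation by 0.29 ± 0.07 in KO cells (adjusted p = 0.00171) and by 0.21 ± 0.07 in SCR cells (adjusted p = 0.0160) on the log2 scale. The call for LARP7 in SCR cells was lost without the first or second SCR library of either stage, with adjusted p from 0.0575 to 0.0641. On the other strand, ZGRF1 and AC106864.1 share 32 and 302 of the exon bases of LARP7. ZGRF1 held 4163 counts in all KO and 4874 in all SCR libraries after differentiation, and 3461 and 3576 before it. The effect of these overlaps was not tested.

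HEXIM1 (chr17:45148502-45152101, 1 exon of 3600 bases) passed the test in all 4 comparisons. It stood at 104, 97.0 and 114 CPM in KO libraries against 65.0, 73.8 and 63.0 CPM in SCR libraries after differentiation. HEXIM1 before differentiation stood at 50.8, 59.7 and 48.3 CPM in KO libraries against 39.3, 41.8 and 45.1 CPM in SCR libraries. KO and SCR libraries did not overlap at either stage, and the KO libraries after differentiation stood above all others. HEXIM1 was higher in KO cells with a log2 fold change of 0.64 ± 0.09 after differentiation (SE, 95% interval 0.45 to 0.83, edgeR adjusted p = 3.1e-05) and 0.33 ± 0.09 before it (0.13 to 0.53, adjusted p = 0.0210). The first held without any single library, while the second was lost without the second KO library (0.24, adjusted p = 0.107), the first SCR library (0.28, 0.0977) or the second SCR library (0.32, 0.0698) before differentiation, and when only the 2 groups compared were fitted (0.33, 0.0501). With differentiation HEXIM1 rose 1.98-fold in KO cells (log2 0.99 ± 0.09, adjusted p = 9.4e-08) and 1.601-fold in SCR cells (0.68 ± 0.09, adjusted p = 1.6e-05). An antisense gene, AC138150.1, overlaps 520 of its bases and reads were counted without regard to strand. That gene held 13 counts in all KO libraries and 18 in all SCR libraries after differentiation, where HEXIM1 held 2598 and 2307. These counts do not show how reads in the shared bases were assigned, and the effect of the overlap on HEXIM1 was not tested.

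HEXIM2 (chr17:45160700-45170040) lies 8598 bases beyond HEXIM1 on the same strand and codes for a related inhibitor of P-TEFb. It was the lowest of the 8, with 24 to 65 counts per library, so its error was the largest. It stood at 4.45, 4.63 and 7.17 CPM in KO libraries and 4.03, 4.72 and 3.58 CPM in SCR libraries after differentiation, and at 2.74, 2.16 and 2.26 CPM in KO libraries and 2.35, 2.98 and 2.86 CPM in SCR libraries before it. KO and SCR libraries overlapped at each stage, and the stages did not overlap within either genotype. The log2 fold change of HEXIM2 in KO cells was 0.36 ± 0.21 after differentiation (SE, edgeR adjusted p = 0.201) and -0.19 ± 0.23 before it (adjusted p = 0.655). HEXIM2 rose 2.22-fold with differentiation in KO cells (adjusted p = 3.2e-04) and 1.51-fold in SCR cells (adjusted p = 0.0347). The rise in SCR cells was lost without any 1 of 5 SCR libraries, all 3 before and the first or second after differentiation (adjusted p up to 0.158), and with DESeq2 (0.0798). The antisense gene AC138150.2, with at most 6 counts in a group, overlaps 1026 of its 2038 exon bases. The effect of this overlap on the level of HEXIM2 was not tested.

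CDK9 (chr9:127785679-127790787), the kinase of P-TEFb, was higher in KO cells at both stages and did not pass the test for differentiation in either genotype. It stood at 34.5, 31.7 and 35.1 CPM in KO libraries against 21.0, 21.9 and 23.4 CPM in SCR libraries after differentiation. CDK9 before differentiation stood at 30.1, 39.2 and 29.8 CPM in KO libraries against 23.6, 24.2 and 28.7 CPM in SCR libraries. At neither stage did KO and SCR libraries overlap, though the third SCR library before differentiation came close to the lowest KO library. CDK9 was higher in KO cells with a log2 fold change of 0.61 ± 0.11 after differentiation (SE, 95% interval 0.37 to 0.85, edgeR adjusted p = 4.8e-04) and 0.37 ± 0.11 before it (0.14 to 0.61, adjusted p = 0.0256). The value after differentiation held without any single library. The call before it was lost without the second KO library (0.23, adjusted p = 0.137) or the first or second SCR library (0.32 and 0.33, adjusted p = 0.109 each) of that stage. It was also lost with scaling by totals alone (adjusted p = 0.0503) and when only the 2 groups compared were fitted (adjusted p = 0.0821). With differentiation the changes of CDK9 were 0.03 ± 0.11 in KO cells (adjusted p = 0.821) and -0.21 ± 0.11 in SCR cells (adjusted p = 0.157).

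The cyclins that activate CDK9 differed less between genotypes. CCNT1 (chr12:48688458-48716998), for cyclin T1, stood at 97.5, 101 and 109 CPM in KO libraries against 91.2, 90.1 and 89.0 CPM in SCR libraries after differentiation, with no overlap. CCNT1 before differentiation stood at 82.9, 83.5 and 84.2 CPM in KO libraries and 90.1, 86.8 and 81.7 CPM in SCR libraries, which overlapped. The log2 fold change of CCNT1 in KO cells was 0.18 ± 0.06 after differentiation (SE, edgeR adjusted p = 0.0306) and -0.05 ± 0.06 before it (adjusted p = 0.690). That first call was lost without the second KO library, the third KO library or any SCR library after differentiation (adjusted p from 0.0581 to 0.135), with DESeq2 (0.0643) and with libraries scaled by totals alone (0.782). CCNT1 rose with differentiation by 1.23-fold in KO cells (adjusted p = 6.9e-04), a call also lost with scaling by totals alone (0.167), and changed by 0.06 ± 0.06 in SCR cells (adjusted p = 0.429).

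CCNT2 (chr2:134918235-134959342), for cyclin T2, stood at 90.1, 82.1 and 72.8 CPM in KO libraries and 78.6, 75.1 and 82.7 CPM in SCR libraries after differentiation, which overlapped. Before differentiation it stood at 61.4, 52.4 and 64.2 CPM in KO libraries and 68.9, 64.5 and 66.4 CPM in SCR libraries, with every KO library below every SCR library. The log2 fold change of CCNT2 in KO cells was 0.06 ± 0.09 after differentiation (SE, edgeR adjusted p = 0.663) and -0.16 ± 0.09 before it (adjusted p = 0.217). CCNT2 rose with differentiation by 1.38-fold in KO cells (adjusted p = 2.1e-04) and 1.18-fold in SCR cells (adjusted p = 0.0277). The rise in SCR cells was lost without any 1 of 4 SCR libraries, the second or the third before and the first or the third after differentiation (adjusted p up to 0.107).

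**Figure D2:**
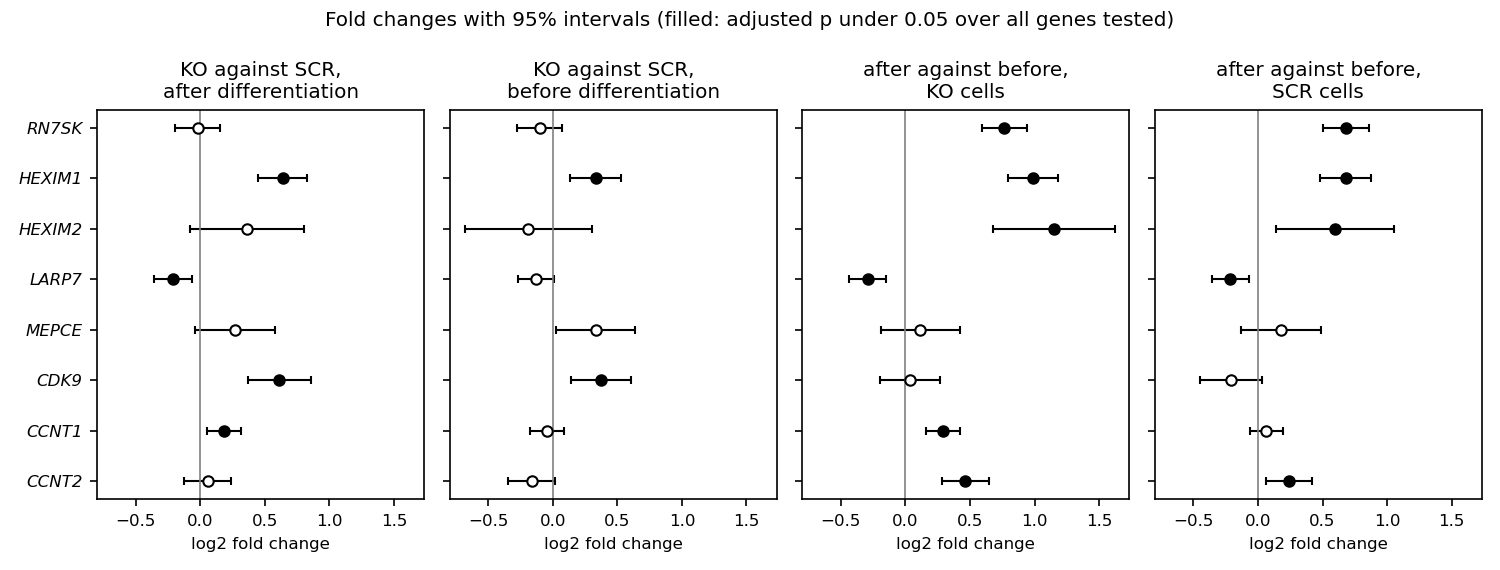
Log2 fold changes (x axis) of the 8 genes (rows) in the 4 comparisons (panels), with 95% intervals from the edgeR fit; filled points passed an adjusted p under 0.05 over all genes tested. HEXIM1 is filled in every panel, CDK9 in both KO against SCR panels, and RN7SK in both after against before panels.

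The knockout effect was compared between the stages directly. None of the 8 genes passed this test with edgeR or with DESeq2, where 6.28% of all genes passed with a larger and 6.68% with a smaller value after differentiation by edgeR, and 2 had an unadjusted p under 0.05. Those were HEXIM1, with a difference of 0.31 ± 0.13 on the log2 scale (SE, edgeR adjusted p = 0.137), and CCNT1, with 0.23 ± 0.09 (adjusted p = 0.0984). Without the second KO library before differentiation the difference of HEXIM1 was 0.41 (adjusted p = 0.0342). For CDK9 it was 0.24 ± 0.16 (95% interval -0.10 to 0.57, adjusted p = 0.367). The larger fold changes of HEXIM1 and CDK9 after differentiation are thus not shown to differ from those before it.

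Per kilobase of exon, RN7SK stood far above the proteins' mRNAs, 6451 times the next gene in KO cells and 10209 times in SCR cells after differentiation, and a level of so short an RNA in total RNA libraries is not comparable with that of an mRNA. On this scale (CPM per kb) HEXIM1 came next after differentiation, at 29.2 in KO cells and 18.7 in SCR cells, followed by MEPCE at 21.6 and 17.8. Before differentiation MEPCE led the mRNAs in KO cells at 19.9 and LARP7 in SCR cells at 16.95, and HEXIM1 stood at 14.7 in KO cells and 11.7 in SCR cells. HEXIM2 was last in every group, at 2.66 in KO cells and 2.02 in SCR cells after differentiation and 1.17 and 1.34 before it. These values divide by all 2038 exon bases of HEXIM2, of which 1026 are shared with an antisense gene. Neighbours in this order whose libraries overlapped were LARP7 and HEXIM1, and CCNT1 and CDK9, in KO cells before differentiation. In SCR cells they were HEXIM1 and MEPCE after differentiation, and LARP7 and MEPCE, and HEXIM1 and CCNT1, before it.

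Ratios within a library do not depend on how libraries were scaled. On the CPM per kb scale HEXIM1 had 2.59 ± 0.11 per unit of CDK9 in KO cells and 2.55 ± 0.28 in SCR cells after differentiation, and 1.34 ± 0.07 in KO cells and 1.38 ± 0.07 in SCR cells before it (SD, n = 3 each). This ratio overlapped between genotypes and was separate between stages. RN7SK per HEXIM1 ran from 6166 to 6755 in KO libraries against 8975 to 11520 in SCR libraries after differentiation, and from 6307 to 8718 in KO libraries against 9568 to 10981 in SCR libraries before it. RN7SK per CDK9 ran from 16446 to 16946 in KO libraries against 25221 to 26650 in SCR libraries after differentiation, and from 7998 to 12266 against 12556 to 15216 before it, lower in KO cells without overlap at both stages. HEXIM1 per LARP7 ran from 2.11 to 2.58 in KO libraries against 1.15 to 1.44 in SCR libraries after differentiation, and from 0.835 to 1.16 against 0.625 to 0.776 before it. These ratios are descriptions of 3 libraries a group and were not tested. With 3 libraries a group, the smallest p of an exact permutation test is 0.1.

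**Figure D3:**
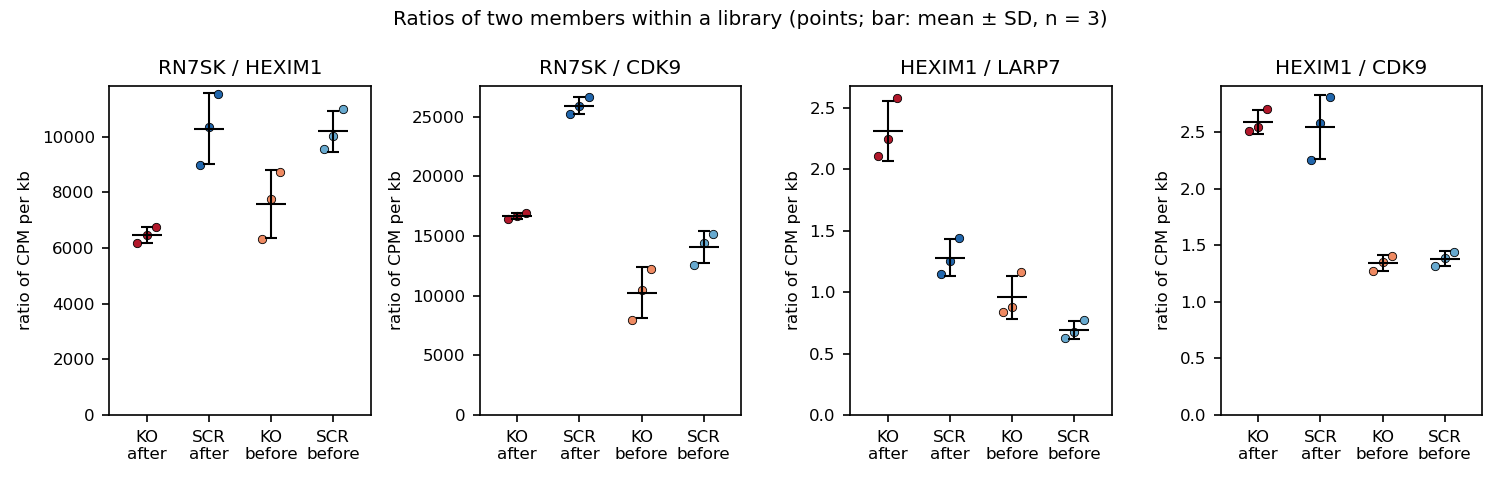
Ratios of CPM per kb between pairs of the genes in each library (y axis, starting at 0), for KO and SCR cells after and before differentiation; points are libraries and bars are mean ± SD of 3. RN7SK per HEXIM1 and per CDK9 is lower in KO than in SCR libraries at both stages, while HEXIM1 per CDK9 overlaps between genotypes and averages 2.59 and 2.55 after differentiation.

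Because MBD2 reads methylated CG dinucleotides, the sequence just before the RefSeq start of HEXIM1 and CDK9 is shown, with each CG in capitals. Methylation was not measured here, and a CG count says nothing of methylation or of binding. Both windows hold the 250 bases before the RefSeq start on GRCh38.p14, plus strand. The CDK9 window lies inside the gene as counted, which starts at base 127785679.
HEXIM1, chr17:45148225-45148474: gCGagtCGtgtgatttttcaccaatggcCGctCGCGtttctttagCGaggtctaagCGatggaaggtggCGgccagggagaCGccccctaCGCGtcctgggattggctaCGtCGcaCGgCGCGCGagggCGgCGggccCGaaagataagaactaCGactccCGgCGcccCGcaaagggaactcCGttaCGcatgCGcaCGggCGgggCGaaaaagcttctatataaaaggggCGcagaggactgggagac
CDK9, chr9:127785784-127786033: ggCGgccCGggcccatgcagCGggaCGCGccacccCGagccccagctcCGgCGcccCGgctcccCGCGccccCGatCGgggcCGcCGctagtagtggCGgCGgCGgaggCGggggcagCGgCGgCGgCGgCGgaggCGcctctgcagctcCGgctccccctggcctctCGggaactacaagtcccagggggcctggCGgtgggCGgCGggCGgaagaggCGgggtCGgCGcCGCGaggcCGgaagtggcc
HEXIM1 held 31 CG and CDK9 held 37, at or above 90.5% and 96.7% of 35116 windows of this length, whose median was 11. The other genes of the complex were CG-rich too: CCNT2 held 31, 1 or more windows of MEPCE, LARP7 and CCNT1 held at least 20, and those of HEXIM2 held 16 and 1. A second CCNT1 window held 0. Searched on both strands, AGATAA, a sequence that GATA factors can bind, was in the HEXIM1 window and 1 of 2 LARP7 windows, in the windows of no other of the genes, and in 9.17% of all windows. GGGCGG was in both the HEXIM1 and CDK9 windows and in 42.6% of all windows, and TATAAA was in that of HEXIM1 and in 10.7% of all. No window for RN7SK was used here.

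The wider release machinery was described from lists of related genes, whose counts stand beside 33.1% of all genes called between KO and SCR cells after differentiation and 17.2% before it. For after against before differentiation the shares of all genes called were 55.7% in KO cells and 43.8% in SCR cells. Of 20 factors that free P-TEFb from 7SK or remodel the particle, 3 were higher and 2 lower in KO cells after differentiation, and 2 were higher and 1 lower before it, with medians of -0.02 and 0.01 against -0.01 and -0.00 over all genes tested. PPP3CA, the catalytic subunit of calcineurin, was lower in KO cells at both stages (log2 fold change -0.71 ± 0.08 after and -0.31 ± 0.07 before, edgeR adjusted p = 2.1e-06 and 0.00752). PPM1A, a phosphatase that can release P-TEFb by acting on CDK9, was higher after differentiation (0.55 ± 0.08, adjusted p = 3.0e-05). JMJD6, a factor of pause release, was higher before it (0.31 ± 0.08, adjusted p = 0.0135), and this call was lost without the third KO library, the second SCR library or the third SCR library of that stage (adjusted p up to 0.0661). With differentiation 4 rose and 5 fell in KO cells, and 4 rose and 3 fell in SCR cells. ARID1A, a subunit of the BAF remodeller, rose 1.596-fold in KO cells and 1.556-fold in SCR cells. HNRNPR, which binds 7SK, fell to 0.685 of its earlier level in KO cells and 0.799 in SCR cells, and PPM1G to 0.668 and 0.710.

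The super elongation complex joins P-TEFb once it is free. Of 8 tested members out of 11 listed, 2 were higher in KO cells after differentiation, and 1 was higher before it, with medians of 0.03 and 0.01. MLLT3, a scaffold subunit that reads acetylated histones, averaged 312 ± 12.9 CPM in KO cells against 152 ± 3.53 CPM in SCR cells after differentiation, and 167 ± 15.97 CPM in KO cells against 126 ± 6.22 CPM in SCR cells before it (SD, n = 3 each). ELL2, an elongation factor, averaged 71.7 ± 5.96 CPM in KO cells against 35.5 ± 2.34 CPM in SCR cells after differentiation. These are 2.05-fold for MLLT3 (edgeR adjusted p = 7.3e-09) and 2.02-fold for ELL2 (adjusted p = 9.8e-08). With differentiation 5 of 8 rose in KO cells, led by MLLT3 at 1.87-fold and ELL2 at 1.69-fold, and 3 rose in SCR cells, namely MLLT3, AFF4 and AFF1 at 1.202 to 1.209-fold. AFF1 and AFF4 hold the complex together, and their calls in SCR cells were lost without the second SCR library before or the first after differentiation.

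NELF and DSIF hold the polymerase at the pause. After differentiation, the log2 fold changes of the 6 subunits of NELF and DSIF in KO cells ran from -0.18 to 0.23, with edgeR adjusted p of 0.105 or more. Before it 1 of the 6 passed, NELFCD (log2 fold change 0.23 ± 0.06, adjusted p = 0.00835), a call lost without the second SCR library of that stage (0.0574). NELFB fell with differentiation in KO cells to 0.692 of its earlier level, NELFE rose 1.30-fold there, and SUPT4H1, the small DSIF subunit, fell to 0.849 in KO cells and 0.804 in SCR cells. The medians of NELF and DSIF were 0.09 after and 0.22 before differentiation in KO against SCR cells. The call for NELFE was lost with scaling by totals alone (0.145), and that for SUPT4H1 in KO cells without the third library before (0.0691) or the first after differentiation (0.0638). Of 12 PAF1 complex and partner genes tested, 3 were higher and 2 lower in KO cells after differentiation, and 1 was higher before it, with medians of 0.05 at both stages. SUPT6H, a histone chaperone that travels with the polymerase, was higher by 1.41-fold after (adjusted p = 1.8e-04) and 1.19-fold before (adjusted p = 0.0461), a call lost in 11 of 21 alternatives, among them without the second KO library (0.193) or the first SCR library (0.211) of that stage. TCEA1, which restarts stalled polymerase, was 1.39-fold higher in KO cells after differentiation, and it rose with differentiation 2.56-fold in KO cells and 1.77-fold in SCR cells. In this group 4 rose and 4 fell with differentiation in KO cells, and 3 rose and 2 fell in SCR cells.

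Other kinases and phosphatases of the polymerase tail showed both directions. Of 15 tested, 1 was higher and 3 lower in KO cells after differentiation, and 1 was higher and 2 lower before it, with medians of -0.04 and -0.02. RPRD1A, which binds the phosphorylated tail, was at 0.697 of the SCR level after and 0.743 before (edgeR adjusted p = 1.5e-05 and 2.0e-04). CDK8 of the Mediator kinase module fell with differentiation to 0.651 of its earlier level in KO cells and 0.665 in SCR cells, while its relative CDK19 rose 1.93-fold in KO cells. Of 14 Integrator subunits, the complex that ends transcription at paused genes, 3 were higher and 5 lower in KO cells after differentiation, and 2 were lower before it, with medians of -0.02 and 0.06. INTS13 was at 0.711 of the SCR level after and 0.813 before, and with differentiation it fell to 0.392 of its earlier level in KO cells and 0.448 in SCR cells. INTS7 rose 1.601-fold in KO cells and 1.47-fold in SCR cells.

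Among 8 erythroid regulators tied to pausing or elongation, 5 were higher and 1 lower in KO cells after differentiation, and 3 were higher and 2 lower before it, with medians of 0.35 and 0.25. TRIM33, which recruits P-TEFb at erythroid genes in zebrafish, averaged 214 ± 8.84 CPM in KO cells against 135 ± 3.45 CPM in SCR cells after differentiation, and 183 ± 8.90 CPM in KO cells against 136 ± 4.77 CPM in SCR cells before it (SD, n = 3 each). TAL1, a partner of GATA1, was 1.82-fold higher in KO cells after differentiation (edgeR adjusted p = 1.8e-08). MYB, a factor of immature cells whose transcription is controlled by elongation within its first intron, was at 0.587 of the SCR level after (adjusted p = 4.3e-08) and 0.783 before (adjusted p = 5.0e-04). With differentiation 6 of 8 rose and 1 fell in KO cells, and 5 rose in SCR cells.

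A further 10 genes act on the cap or the 3′ end of small RNAs. In KO cells after differentiation 1 was higher and 3 lower, and before it 1 was lower, with medians of -0.16 and 0.03. PARN, a deadenylase that trims the ends of small RNAs, was at 0.802 of the SCR level after (edgeR adjusted p = 0.00108) and 0.851 before (adjusted p = 0.0177), the value before being lost without the first or the second SCR library of that stage (0.0587 and 0.0830). SSB, the La protein that binds new polymerase III transcripts ahead of LARP7, fell with differentiation to 0.696 of its earlier level in KO cells and 0.801 in SCR cells, and TOE1, another trimming enzyme, to 0.570 and 0.719. VTRNA1-3, a vault RNA made by polymerase III, was 2.80-fold higher in KO cells both after and before differentiation (adjusted p = 0.00229 and 0.00273). VTRNA1-3 held only 276 counts over the 12 libraries. It belongs to the polymerase III list, of which 11 genes were tested. Of those 11, 3 were higher and 1 lower in KO cells after differentiation, and 1 was higher before it, with medians of 0.31 and -0.07.

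**Figure D4:**
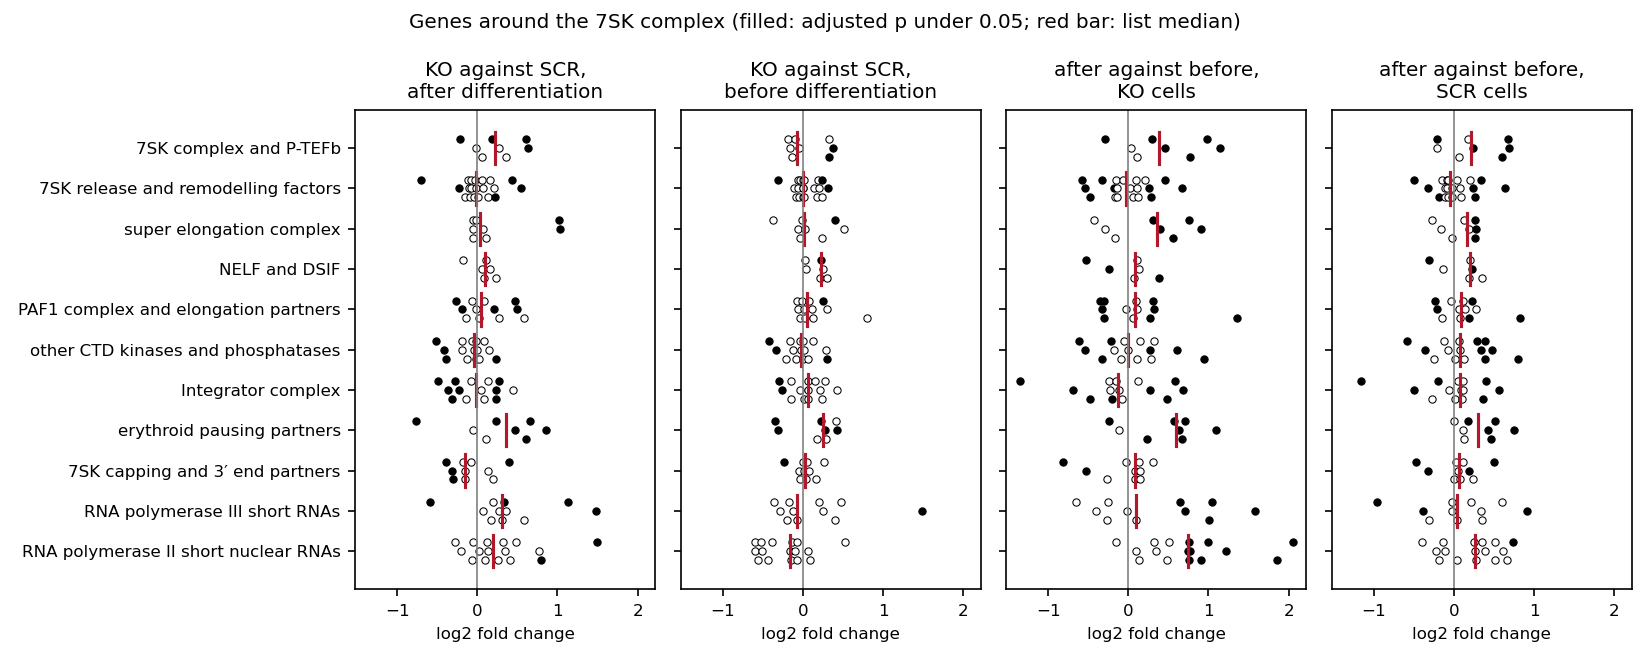
Log2 fold changes (x axis) of the tested genes in each list (rows) in the 4 comparisons (panels); filled points passed an adjusted p under 0.05 and red bars are list medians. MLLT3 and ELL2 stand apart in the super elongation complex row after differentiation, at 1.04 and 1.02.

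Genes with the most similar pattern to each member were found by Pearson correlation of log2 CPM over the 12 libraries, among 9602 or 9603 well-measured protein-coding genes. The libraries fall into 4 groups that share a genotype and a stage, so high values are common and no p is given. HEXIM1 was most like KAT8, ROGDI and MKNK2 (r = 0.998, 0.997 and 0.993). RN7SK was most like OGT, PMAIP1 and ZBTB20 (0.991, 0.990 and 0.988), LARP7 like CMTM6, GMFB and UGP2 (0.988, 0.986 and 0.985), and CCNT2 like MATR3, RASA1 and NAPEPLD (0.971, 0.968 and 0.967). For CDK9 these were RFXANK, WDR81 and ST6GALNAC6 (0.966, 0.964 and 0.964), for MEPCE they were KIFC1 and SIDT2 (0.966 and 0.959), for HEXIM2 POGZ, PDLIM7 and HYLS1 (0.968, 0.951 and 0.950), and for CCNT1 C1orf52, TPX2 and KAT6A (0.959, 0.952 and 0.948). Within the complex, HEXIM1 and LARP7 ran opposite to each other (r = -0.98), RN7SK and HEXIM2 ran together (0.87), and RN7SK and CDK9 were nearly unrelated (-0.20).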

How the data were processed

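The 12 libraries were prepared from total RNA with a stranded kit after depletion of ribosomal RNA and globin transcripts, per the labels' protocols. The deposited values are raw pair counts for each gene. Per the file headers, the authors made them with featureCounts 1.4.6-p4 from exons of GENCODE release 22 on hg38, grouped by gene identifier and with no strand option. The submitters' processing notes name Trimmomatic, FastQC, Subread 1.6.2, featureCounts 1.2.6 and edgeR 3.18.1. Symbols came from GENCODE release 29 by identifier, which left 3730 of 60483 genes unnamed. RN7SK was matched by its identifier, and older Integrator names through RefSeq synonyms.

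The count test was that of edgeR 4.0.16 under R 4.3.3. The steps were filterByExpr, TMM scaling, a group-means model over all 12 libraries, and two-sided quasi-likelihood tests with Benjamini-Hochberg adjustment over 17175 genes. The common biological coefficient of variation was 0.0890, and the code was tested on simulated counts. A standard error is the log2 fold change over the square root of F. Alternatives were DESeq2 1.42.0, other scalings, no filter, only the groups compared, a replicate block, and each library left out. A sum of RN7SK with its pseudogenes and a fit without ribosomal RNA genes were chosen after seeing the data. No pair of libraries in a group agreed within counting noise, so none was treated as a duplicate.

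The rule for named genes took the 8 members, up to 3 called genes per list and comparison by smallest adjusted p, the 3 genes most like each member (1 of those for MEPCE is not reported here), and up to 3 RN7SK pseudogenes. Members and lists were chosen with earlier results of these data known. Lists are described by counts and medians, with no set test. Ribosomal RNA genes held 0.394% to 2.74% of counts, most in KO cells after differentiation, and without them the members called stayed at 4, 2, 6 and 5 in the 4 comparisons. Alignments used Biopython, and promoter windows came from RefSeq.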

Additional observations from a re-analysis of the deposited data

Results flagged for a closer look

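None of the 8 members of the 7SK complex and P-TEFb met the rules for a closer look. Of the list genes already named by a call in another comparison, 12 had a knockout effect that differed between the stages by the direct edgeR test. Over all genes tested, 6.28% passed that test with a larger and 6.68% with a smaller value after differentiation. Because the named genes were picked by a call, the 12 are not a share of the lists. Of 14 Integrator subunits, 1 passed with a larger value and was not among the named genes. Values are log2 fold changes of KO against SCR after minus before differentiation. The difference was positive for ELL2 at 0.78 (adjusted p = 5.1e-04), MLLT3 at 0.64 (adjusted p = 5.1e-04), TAL1 at 0.63 (adjusted p = 2.4e-04), CDK19 at 0.57 (adjusted p = 0.00708), NR3C1 at 0.55 (adjusted p = 6.9e-04), PPM1A at 0.54 (adjusted p = 0.00309), TCEA1 at 0.53 (adjusted p = 0.00549) and RNU1-2 at 1.32 (adjusted p = 0.00280). It was negative for INTS10 at -0.43 (adjusted p = 0.00284), MYB at -0.42 (adjusted p = 0.00404), NELFB at -0.40 (adjusted p = 0.0470) and PPP3CA at -0.40 (adjusted p = 0.0228).

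CDK19, the Mediator kinase, and NR3C1, the glucocorticoid receptor, turned direction with a call at each stage. The signs of RNU1-2, NELFB, TCEA1 and INTS10 also differed between the stages, without calls at both. The log2 fold change of CDK19 in KO cells was 0.24 ± 0.09 after differentiation (SE, adjusted p = 0.0493) and -0.33 ± 0.09 before it (adjusted p = 0.0199), and the second was lost when only the 2 groups compared were fitted (0.0791) or without the third KO, the second SCR or the third SCR library of that stage (0.0856, 0.0532 and 0.0710). NR3C1 had 0.23 ± 0.06 after differentiation (adjusted p = 0.00936) and -0.32 ± 0.06 before it (adjusted p = 0.00199). The differences between stages of the flagged genes were not followed in the alternative settings. Nor were the values of CDK19 and NR3C1 after differentiation.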

How the results depend on the processing

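Over 21 alternative settings, 734 of 797 values of the 8 members kept their direction and side of the threshold, 42 lost a call, 6 gained one and 15 turned direction. Of 1940 values of the list genes named, 1858 stayed and 82 lost a call, while none turned direction.

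The number of members called was 4 for KO against SCR after differentiation and 2 without the filter on low counts, 3 with library totals only or DESeq2, 5 when only the 2 groups compared were fitted, and 2 to 4 with a library left out. Before differentiation it was 2, and 1 with library totals only 0 when only the 2 groups compared were fitted, 3 without the filter, and 0 to 3 with a library left out. In KO cells after against before it was 6, and 5 with library totals only, and 6 to 7 with a library left out. In SCR cells it was 5, and 3 with library totals only, 3 without the filter, 4 with DESeq2, and 2 to 5 with a library left out. For the difference between stages it was 0, and 0 to 1 with a library left out. The cause was not tested.

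Values that turned direction stayed short of the threshold, and after turning they ran from -0.15 to 0.16. With library totals only, CCNT2 was -0.10 for KO against SCR after differentiation, MEPCE and CDK9 were -0.069 and -0.15 for KO cells after against before, and RN7SK was -0.050 for the difference between stages. Without the filter CDK9 was -0.017 in KO cells after against before. With a library left out, RN7SK ran from -0.049 to 0.033 and CCNT2 from -0.019 to 0.13 for KO against SCR after differentiation, turning without the second KO or the third SCR library (RN7SK) or the first KO library (CCNT2) of that stage. MEPCE ran from -0.0079 to 0.34 and CDK9 from -0.029 to 0.17 in KO cells after against before. The value of 0.34 was called (adjusted p = 0.0231), without the second KO library before differentiation. For the difference between stages MEPCE ran from -0.18 to 0.16.

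With library totals only, the median log2 fold change of all genes was -0.17 against -0.01 as reported for KO against SCR after differentiation, -0.16 against 0.03 for KO cells after against before, and -0.15 against -0.01 for the difference between stages. The share of called genes that were higher was 27.6% against 50.7%, 35.1% against 50.3% and 23.1% against 48.5%.

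Replicate numbers are shared between groups, and the labels do not say that they mark a shared culture or day. Only 10 of 18 same-numbered pairs had a correlation of deviations over 0.1 (range -0.018 to 0.251), so the numbers were not taken as pairs, although 10 of 12 libraries correlated best with their own number, a hint from the data. With a replicate block the members called were 4, 3, 6 and 5 in the 4 comparisons and 0 for the difference, MEPCE before differentiation being added (0.33, adjusted p = 0.0296). HEXIM2, with 24 to 65 counts per library, is limited by depth.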
